A study of Homo sapiens with 32 samples.

Results

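The comparison described here is the loss of XRCC4 in irradiated cells that already lack p53. It rests on 4 of the 32 libraries of the series: 2 libraries of an XRCC4 p53 double knockout (DKO) and 2 libraries of a p53 knockout (p53 KO), all collected 3 days after 10 Gy of ionising radiation. The members were taken by genotype and treatment label, and every gene of the count table was considered. MCF10A cells come from human breast epithelium and are not transformed. They were grown here with EGF, hydrocortisone, cholera toxin, insulin and horse serum. The 2 XRCC4 KO libraries and the 2 wild-type (WT) libraries collected at the same time after the same dose serve as a second comparison of XRCC4 loss, in cells with p53, and share no library with the first. The remaining 2 groups, XRCC4 KO and DKO given an ATR inhibitor (ATRi), entered the fit only to estimate the spread.

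What limits the groups as a model is how the lines were made. Cas9 and the guides were delivered by lentivirus under blasticidin and puromycin selection, and the knockout lines were raised from single cells, so each comparison sets 1 grown line against another. No knockout line was measured without irradiation, so a difference between DKO and p53 KO cannot be split into one that was there before irradiation and one that followed it. Whether the DKO was derived from the XRCC4 KO line, the p53 KO line or neither is not stated. The labels leave unsaid whether both libraries of a line stem from different cultures, so p-values measure only the spread between these libraries, which may be technical.

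XRCC4 is the scaffold of DNA ligase IV, the enzyme that seals DNA double-strand breaks in classical non-homologous end joining (c-NHEJ), the main repair route for such breaks outside S phase. Cells that divide with unrepaired breaks form micronuclei, whose DNA can be sensed by cGAS, which signals through STING to the transcription factor IRF3 and so to interferon genes. p53 holds damaged cells out of the cycle, and cells without it can enter mitosis after irradiation more readily. The series text asks whether losing p53 and the G2-M checkpoint brings back radiation-induced inflammatory signalling in cells deficient in c-NHEJ, and the present comparison asks how far p53-null cells with and without XRCC4 still differ.

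Total estimated counts were 17468683 and 16754013 in the DKO and 17863655 and 14242045 in the p53 KO. A per-gene chi-square comparing both libraries of a line, for which counting error alone would give about 1, was 1.55 in the DKO and 3.33 in the p53 KO. Epithelial markers were abundant in both lines: the 10 mammary epithelial markers summed to between 15443 and 15912 CPM (counts scaled to a common library size) in the DKO and between 10689 and 11145 CPM in the p53 KO. Among immune and blood markers, HBB had 0 counts in the 4 libraries and PTPRC, the pan-leukocyte marker CD45, stayed between 0.116 and 0.168 CPM. The 4 retinal pigment epithelium markers summed to 1.51 to 2.19 CPM in the DKO and 2.23 to 2.37 CPM in the p53 KO.

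Of 60332 genes in the table, 16632 had enough counts to be tested. The two-sided edgeR quasi-likelihood test with Benjamini-Hochberg adjustment called 4037 genes higher in the DKO, which is 24.3% of those tested, and 4142 genes lower, which is 24.9%. At a change of at least 2-fold, 892 genes (5.36%) were higher and 969 (5.83%) lower. The spread between libraries was small, with a common biological coefficient of variation of 0.0361, so that many small differences passed, and gene lists are read below against these shares. The libraries of the groups did not overlap in 12101 genes (72.8%). The median log2 fold change over all tested genes was -0.00. The median gene of chromosomes 7, 13 and 19 and of chromosome 5 past 120 Mb was higher in the DKO, as described further on. These regions are called the raised chromosomes, and several lists are also given without them. Raised means against the p53 KO: on chromosome 7 the p53 KO lay below WT (median -0.49, log2 CPM) and the DKO near it (-0.06). Outside the raised chromosomes 17.8% of tested genes were called higher and 27.8% lower, the shares to set beside counts given without them.

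XRCC4 itself (ENSG00000152422, hg19 chr5:82348665-82649606) gave 13.6 and 15.7 CPM in the DKO and 12.1 and 15.7 CPM in the p53 KO. The libraries overlapped, with a log2 fold change of 0.08 ± 0.12 (SE, edgeR adjusted p = 0.589). A CRISPR cut that shifts the reading frame need not lower the mRNA, so this level does not check the knockout. In cells with p53 the same gene had 8.80 and 8.36 CPM in XRCC4 KO and 7.06 and 7.14 CPM in WT. The p53 status shows in CDKN1A, the p53 target that encodes the cell cycle inhibitor p21. CDKN1A had 180 and 185 CPM in the DKO and 145 and 136 CPM in the p53 KO, beside 1877 and 1899 CPM in XRCC4 KO and 1327 and 1385 CPM in WT.

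Among 23 tested end-joining genes, 7 were higher and 2 lower in the DKO, with a median log2 fold change of 0.07. LIG4, the ligase that XRCC4 stabilises (chr13:108859787-108870716), had 40.9 and 38.7 CPM in the DKO and 22.6 and 24 CPM in the p53 KO, higher by 0.78 ± 0.08 on the log2 scale (edgeR adjusted p = 2.37e-10). POLM, a polymerase that fills gaps during end joining (chr7:44111846-44122139), had 86.9 and 85.8 CPM in the DKO and 41.2 and 40.1 CPM in the p53 KO (1.09 ± 0.06, edgeR adjusted p = 2.66e-17). In both genes the DKO libraries lay above the p53 KO libraries, and both lie on the raised chromosomes. APLF, a scaffold that binds XRCC4 and lies on chromosome 2, rose by 0.55 ± 0.17 on the log2 scale (edgeR adjusted p = 0.00746), a call lost under DESeq2 (adjusted p = 0.109), in the FPKM fits and when DKO replicate 2 (edgeR adjusted p = 0.0842) or p53 KO replicate 2 (edgeR adjusted p = 0.0628) was left out. APTX, which removes AMP from failed ligations, was lower, at 34.8 and 37.3 CPM in the DKO and 45.4 and 46.6 CPM in the p53 KO (-0.35 ± 0.07, edgeR adjusted p = 3.18e-05). Away from the raised chromosomes 3 of 19 end-joining genes were higher and 2 lower, with a median of -0.05.

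The interferon response was the gene group that stood most to one side. Of 60 interferon-stimulated genes tested, 54 were lower in the DKO and 2 higher, and 32 were at least 2-fold lower. Their median log2 fold change was -1.17, against -0.00 for all tested genes. IFIT1, which binds foreign RNA caps and blocks their translation (hg19 chr10:90973326-91174314, an interval it shares with IFIT2), had 7.73 and 7.28 CPM in the DKO and 50.2 and 62.5 CPM in the p53 KO, a log2 difference of -2.90 ± 0.28 (edgeR adjusted p = 0.000142). MX1, an antiviral GTPase (chr21:42792231-42831141), had 0.784 and 0.698 CPM in the DKO and 9.63 and 10.3 CPM in the p53 KO (-3.73 ± 0.24, edgeR adjusted p = 1.66e-14). The groups did not overlap in either gene, and in both the p53 KO was above WT as well: WT had 12.8 and 19.5 CPM of IFIT1 and 2.98 and 5.38 CPM of MX1. The lowest values were those of XRCC4 KO, with 2.17 and 3.09 CPM of IFIT1 and 0.460 and 0.492 CPM of MX1. For both genes the 4 groups thus ranked XRCC4 KO, DKO, WT and p53 KO from low to high without overlap between neighbouring groups.

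**Figure D1:**
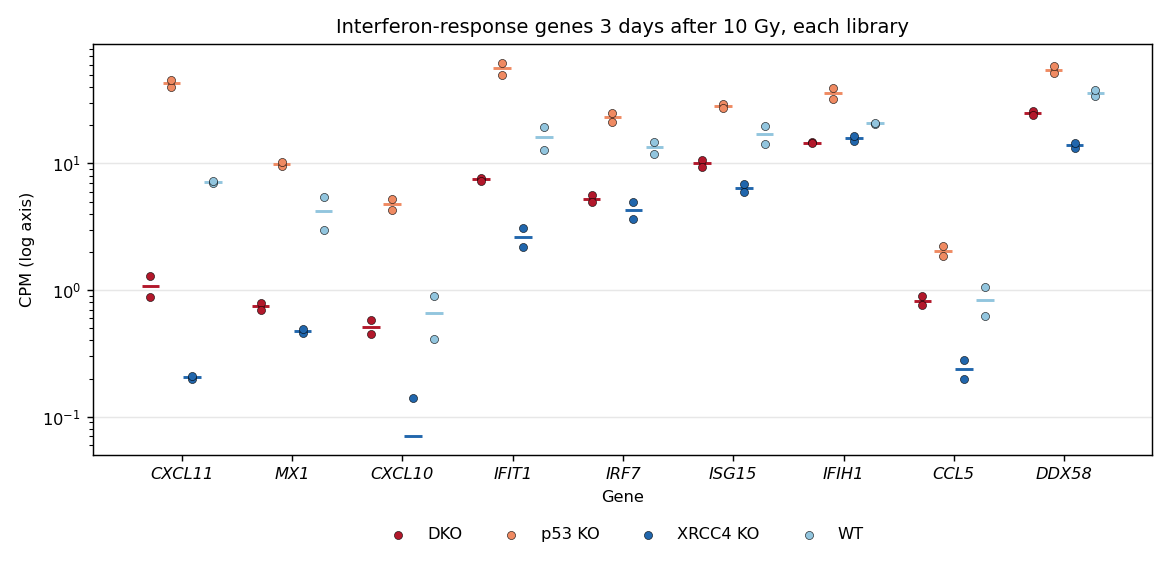
Level in CPM (log axis) of 9 interferon-response genes in each library of 4 groups, DKO, p53 KO, XRCC4 KO and WT; points are libraries and short lines are means of 2. In each of the 9 genes both DKO libraries lie below both p53 KO libraries. The groups did not overlap, in 1 direction or the other, in 72.8% of all tested genes. ZC3HAV1 and PARP12, the 2 interferon-stimulated genes called higher, are not drawn. For CXCL10 the XRCC4 KO library with 0 CPM cannot be drawn on the log axis.

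ISG15, the ubiquitin-like modifier (chr1:936518-949921), had 10.7 and 9.43 CPM in the DKO and 29.2 and 27.6 CPM in the p53 KO (-1.5 ± 0.12, edgeR adjusted p = 3.97e-09). The steepest falls by the rule for named genes were in CMPK2, a mitochondrial nucleotide kinase, and LAMP3, a lysosomal membrane protein. CMPK2 had 2 and 0 counts in the DKO and 64 and 42 counts in the p53 KO, 54.2-fold lower with a 95% counting interval (exact binomial) of 14.6 to 454. LAMP3 had 0.616 and 0.291 CPM in the DKO and 14.4 and 13.2 CPM in the p53 KO (-4.90 ± 0.28, edgeR adjusted p = 1.87e-14). Regulators and sensors were lower too: IRF7, the factor that amplifies interferon transcription, fell by 2.15 ± 0.16, IFIH1 (the RNA sensor MDA5) by 1.30 ± 0.09 and DDX58 (the RNA sensor RIG-I) by 1.12 ± 0.12 on the log2 scale, with edgeR adjusted p = 9.42e-09, 7.10e-14 and 1.26e-05. The 2 members called higher, ZC3HAV1 (0.14 ± 0.06) and PARP12 (0.37 ± 0.05), are both antiviral proteins of the PARP family and both lie on chromosome 7. The call of ZC3HAV1 was lost in 9 alternatives, DESeq2 (adjusted p = 0.110) among them. Without the raised chromosomes, 51 of 54 members were lower and 3 not called, with a median of -1.35.

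Many interferon-stimulated genes carry a binding site for IRF3 and other interferon regulatory factors close to the start of transcription. The letters GAAA followed by 2 bases of any kind and again GAAA, searched on both strands in the 250 bases before the start, were found in 24 of the 47 list members with a RefSeq promoter (51.1%) and in 273 of 11087 promoters of tested genes (2.46%). Of all RefSeq promoters of this length, 839 of 27305 (3.07%) held them. Members with the letters had a median log2 fold change of -1.52 (24 genes, 21 called lower) and those without a median of -0.63 (23 genes, 20 called lower). A match is a run of letters and not a measured binding site, and the windows are short. The windows of 3 of the genes described follow, with the matches in capitals (those of IFIT1 read on the other strand), from RefSeq on GRCh38.p14. The capitals run together in ISG15 because 2 matches overlap by 4 letters.

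IFIT1, chr10:89392373-89392622, plus strand: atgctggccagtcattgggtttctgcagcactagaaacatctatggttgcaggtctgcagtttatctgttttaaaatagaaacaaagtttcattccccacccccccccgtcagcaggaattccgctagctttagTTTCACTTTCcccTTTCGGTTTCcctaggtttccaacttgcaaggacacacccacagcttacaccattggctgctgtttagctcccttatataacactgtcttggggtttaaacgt

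ISG15, chr1:1013247-1013496, plus strand: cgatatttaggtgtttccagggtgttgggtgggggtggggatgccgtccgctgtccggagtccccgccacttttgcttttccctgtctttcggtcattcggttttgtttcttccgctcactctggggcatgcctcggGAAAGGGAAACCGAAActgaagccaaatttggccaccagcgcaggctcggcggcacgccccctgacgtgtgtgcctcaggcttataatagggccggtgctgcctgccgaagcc

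CXCL10, chr4:76023498-76023747, minus strand: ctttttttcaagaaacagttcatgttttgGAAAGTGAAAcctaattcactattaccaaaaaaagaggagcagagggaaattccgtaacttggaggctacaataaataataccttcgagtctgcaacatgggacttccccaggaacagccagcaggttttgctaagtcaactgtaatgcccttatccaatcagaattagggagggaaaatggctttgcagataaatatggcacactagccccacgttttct

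In IFIT1 and ISG15 the nearest match ends 93 and 97 bases before the start, and in CXCL10 it ends 211 bases before it. The window of MX1 held no match, although MX1 fell more than IFIT1 and ISG15. Each gene was searched at a single start, so sites near any other start of MX1 would be missed.

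Interferon and chemokine transcripts were low in the DKO too. Of 9 tested genes of this list, 6 were lower and 3 not called, with a median of -3.20, or -1.28 with genes at 0 counts set to their bound. CXCL11, which draws activated T cells (chr4:76932337-77033955, an interval shared with CXCL10 and ART3), had 1.29 and 0.873 CPM in the DKO and 40.2 and 45.9 CPM in the p53 KO (-5.30 ± 0.16, edgeR adjusted p = 5.80e-23). CXCL10, which binds the same receptor, had 0.448 and 0.582 CPM in the DKO and 5.21 and 4.27 CPM in the p53 KO (-3.20 ± 0.28, edgeR adjusted p = 3.73e-11). CCL5, a T-cell chemokine under IRF3 and NF-kB control, had 0.896 and 0.757 CPM in the DKO and 1.84 and 2.23 CPM in the p53 KO (-1.28 ± 0.31, edgeR adjusted p = 0.000807). The interferon genes themselves were near the detection limit: IFNL1, a type III interferon, had 1 and 0 counts in the DKO and 14 and 14 counts in the p53 KO, 28.7-fold lower with a 95% counting interval of 4.74 to 1172.

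Antigen presentation genes followed the same side. Of 29 tested, 24 were lower in the DKO, 9 of them at least 2-fold, and the median was -0.42. IDO1, the interferon-induced tryptophan-degrading enzyme, had 0 counts in both DKO libraries and 56 and 31 counts in the p53 KO, at least 29.7-fold lower when the DKO is set to a floor of 3 counts in all. CIITA, the master regulator of MHC class II genes, had 0.280 and 0.757 CPM in the DKO and 4.52 and 3.68 CPM in the p53 KO (-2.98 ± 0.34, edgeR adjusted p = 6.68e-09). CD74, the chaperone of MHC class II molecules, had 0.280 and 0.291 CPM in the DKO and 2.84 and 2.96 CPM in the p53 KO (-3.31 ± 0.40, edgeR adjusted p = 2.51e-08). In bulk RNA, fewer cells with such transcripts and less RNA per cell cannot be told apart.

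The sensors and adaptors upstream did not move to one side. Of 22 tested nucleic acid sensing genes, 8 were higher and 7 lower, with a median of 0.07. TMEM173, which encodes STING (chr5:138855119-138862520), had 147 and 143 CPM in the DKO and 73.1 and 63.7 CPM in the p53 KO (1.08 ± 0.05, edgeR adjusted p = 8.71e-18). IRF3, the factor it activates (chr19:50162826-50177173), had 125 and 126 CPM in the DKO and 75.9 and 72.2 CPM in the p53 KO (0.76 ± 0.05, edgeR adjusted p = 1.36e-14). Both genes were thus higher in the line with the lower interferon response, and both lie in these regions, on chromosomes 5 and 19, as does RNASEH2A (0.94 ± 0.07), a subunit of the enzyme that clears RNA from DNA. MB21D1, which encodes cGAS (chr6:74078278-74161999), had 30.0 and 29.8 CPM in the DKO and 39.4 and 42.8 CPM in the p53 KO (-0.46 ± 0.08, edgeR adjusted p = 5.70e-06). TLR3 (-0.92 ± 0.12), SAMHD1 (-0.75 ± 0.12) and IFI16 (-0.61 ± 0.05), which act in RNA sensing, nucleotide removal and DNA sensing and are themselves interferon-inducible, were also lower. ENPP1, the phosphodiesterase that breaks down the cGAS product cGAMP, had 2.69 and 3.43 CPM in the DKO and 1.26 and 0.854 CPM in the p53 KO (1.5 ± 0.30, edgeR adjusted p = 0.000105). Without the raised chromosomes 3 of 16 sensing genes were higher and 6 lower, beside 17.8% and 27.8% of all tested genes outside them.

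Inflammatory genes of the NF-kB and senescence-associated secretory type split within the list: 12 of 37 were higher in the DKO, 15 lower, and the median was -0.01. The collagenase gene MMP1 (chr11:102617699-102714534) had 43.8 and 42.0 CPM in the DKO and 4.73 and 5.52 CPM in the p53 KO (3.07 ± 0.10, edgeR adjusted p = 1.33e-22), and its neighbours MMP3 and MMP10, the stromelysins, rose by 3.38 ± 0.14 and 2.09 ± 0.19. IL1B, the interleukin 1 beta gene, had 908 and 844 CPM in the DKO and 398 and 383 CPM in the p53 KO (1.16 ± 0.04, edgeR adjusted p = 1.32e-21), and IL1A rose by 0.39 ± 0.04. LCN2, the iron-sequestering lipocalin (chr9:130911350-130915734), had 9.47 and 11.1 CPM in the DKO and 122 and 124 CPM in the p53 KO (-3.59 ± 0.07, edgeR adjusted p = 2.08e-27). IGFBP3 (-2.51 ± 0.16), IL36G (-2.35 ± 0.22) and SAA2 (-0.99 ± 0.05) were also lower. CXCL8, the neutrophil chemokine interleukin 8, had 136 and 143 CPM in the DKO and 214 and 234 CPM in the p53 KO (-0.68 ± 0.05, edgeR adjusted p = 3.30e-14). IL6 had 4.48 and 5.36 CPM in the DKO and 3.47 and 4.53 CPM in the p53 KO, overlapping values with no call (edgeR adjusted p = 0.219). Members of the same families thus went both ways, as IL1A and IL1B were higher while IL36G, also of the interleukin 1 family, was lower.

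**Figure D2:**
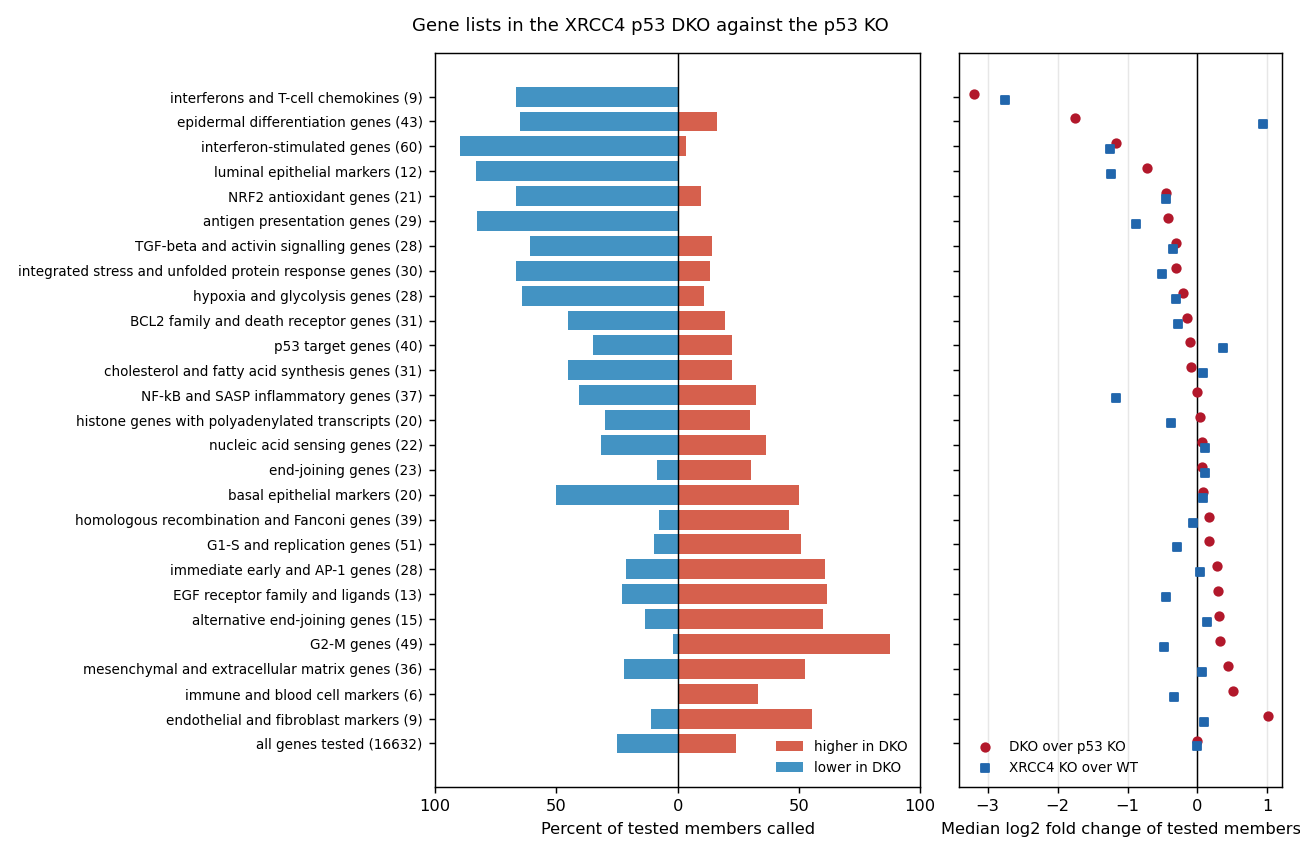
Left, percent of the tested members of each gene list (number tested in brackets) called higher (red, to the right) or lower (blue, to the left) in the DKO against the p53 KO by edgeR; right, median log2 fold change of the same members for DKO over p53 KO (circles) and XRCC4 KO over WT (squares). Interferon-stimulated genes lie far to the lower side (54 of 60) and G2-M genes to the higher side (43 of 49), beside 24.9% and 24.3% of all genes tested.

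In a p53-null background the p53 target genes had no common direction: 9 of 40 were higher, 14 lower and 17 not called, with a median of -0.11. GDF15, a stress cytokine (chr19:18485541-18499986), had 0.672 and 0.990 CPM in the DKO and 18.6 and 15.0 CPM in the p53 KO (-4.34 ± 0.19, edgeR adjusted p = 1.44e-17). PLK2 (-1.13 ± 0.06) and BTG2 (-0.66 ± 0.06), which restrain growth, were lower, while CDKN1A (0.37 ± 0.05), CCNG1 (0.44 ± 0.05) and EDA2R (1.02 ± 0.14) were higher. MDM2, the ubiquitin ligase of p53, had 110 and 104 CPM in the DKO and 126 and 130 CPM in the p53 KO (-0.26 ± 0.05, edgeR adjusted p = 5.40e-05). With p53 present, 29 of the 40 genes were higher in XRCC4 KO than in WT and 3 were lower. The shares of all tested genes in that comparison were 28.6% and 27.9%. The difference of the XRCC4 effect is DKO over p53 KO less XRCC4 KO over WT, and so also compares lines. It was negative, meaning lower in the p53-null background, for 27 of the 40 and positive for 3, beside 23.1% and 21.3% of all genes.

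Genes of cell death and its receptors were lower more often than higher, 14 against 6 of 31. HRK, a BH3-only activator of apoptosis, had 2.69 and 2.04 CPM in the DKO and 11.2 and 10.6 CPM in the p53 KO (-2.20 ± 0.16, edgeR adjusted p = 2.70e-13). The death ligand TNFSF10 (-2.06 ± 0.15), the initiator caspase gene CASP10 (-1.99 ± 0.17) and BIK (-1.04 ± 0.13) were lower as well. Among the higher genes were the survival genes BCL2L2 (0.59 ± 0.06) and MCL1 (0.28 ± 0.04) but also BAX, which opens the mitochondrial membrane in apoptosis, and CASP4 (0.32 ± 0.05), an inflammatory caspase. BAX, on chromosome 19, had 67.1 and 66.7 CPM in the DKO and 46.3 and 44.1 CPM in the p53 KO (0.56 ± 0.06, edgeR adjusted p = 8.33e-10).

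Most mitotic genes were higher in the DKO by a small amount. Of 49 G2-M genes 43 were higher and 1 lower, with a median of 0.32, and only KIF20A passed 2-fold. CCNB1, the cyclin of the mitotic kinase (chr5:68462837-68474072), had 375 and 365 CPM in the DKO and 272 and 286 CPM in the p53 KO (0.41 ± 0.04, edgeR adjusted p = 1.92e-10). KIF20A, a kinesin of cytokinesis (chr5:137475455-137549032), had 344 and 341 CPM in the DKO and 162 and 166 CPM in the p53 KO (1.06 ± 0.04, edgeR adjusted p = 1.65e-19). MKI67, the proliferation antigen, had 605 and 592 CPM in the DKO and 467 and 508 CPM in the p53 KO (0.30 ± 0.04, edgeR adjusted p = 1.62e-07). The 4 members with the largest rise, KIF20A, CDC25C, PTTG1 and HMMR, lie on chromosome 5 past 120 Mb, and without the raised chromosomes 38 of 44 members were higher with a median of 0.31. CDC25B, a phosphatase that starts mitosis, was the 1 lower member (-0.40 ± 0.04).

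The same genes went the other way in cells with p53: XRCC4 KO had 38 of 49 lower than WT and 4 higher, with a median of -0.48. CCNB1 had 51.0 and 50.5 CPM in XRCC4 KO and 69.3 and 68.4 CPM in WT, so that both p53-null lines stood several-fold above both lines with p53. The difference of the XRCC4 effect was positive for 44 of the 49 genes and negative for 1. Replication and G1-S genes were less one-sided, with 26 of 51 higher and 5 lower in the DKO and a median of 0.17. MCM7, RFC2, POLD1 and CCNE1, named for the largest rises of 0.62 to 0.68, lie on chromosomes 7 and 19. Off the raised chromosomes 18 of 43 were higher and 5 lower. MCM2, a helicase subunit, had 149 and 146 CPM in the DKO and 163 and 151 CPM in the p53 KO, without a call (edgeR adjusted p = 0.141), though with one when p53 KO replicate 2 was left out (0.0268).

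Many G2-M promoters hold the cell cycle gene homology region, a site through which they are regulated over the cell cycle, whose core is TTTGAA. These letters stood in 22 of the 41 G2-M promoters available (53.7%), searched as above, beside 966 of 11087 promoters of tested genes (8.71%) and 3704 of all 27305 (13.6%). The median log2 fold change was 0.29 for the 22 genes with the letters and 0.41 for the 19 without, so members with and without them were alike higher. The windows of HMMR and of SPC25, which was chosen after its value was seen, are shown as a close and a distant match, with the match in capitals.

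HMMR, chr5:163460382-163460631, plus strand: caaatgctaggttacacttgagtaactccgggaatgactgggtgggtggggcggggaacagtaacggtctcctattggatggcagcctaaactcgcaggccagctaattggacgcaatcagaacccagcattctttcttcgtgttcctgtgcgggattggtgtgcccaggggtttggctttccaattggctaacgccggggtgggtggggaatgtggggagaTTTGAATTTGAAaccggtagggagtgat

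SPC25, chr2:168890431-168890680, minus strand: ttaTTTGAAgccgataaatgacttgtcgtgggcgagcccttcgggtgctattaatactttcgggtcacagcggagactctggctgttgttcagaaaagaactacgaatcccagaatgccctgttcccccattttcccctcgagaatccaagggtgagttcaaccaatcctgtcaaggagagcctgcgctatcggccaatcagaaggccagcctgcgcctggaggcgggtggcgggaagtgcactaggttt

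HMMR, a motility receptor that also binds spindle microtubules, has 2 adjacent matches that end 16 bases before the start. It had 131 and 129 CPM in the DKO and 65.2 and 75.2 CPM in the p53 KO. SPC25, a kinetochore subunit, had 21.9 and 23.6 CPM in the DKO and 13.9 and 16.4 CPM in the p53 KO. Its match lies far upstream, 241 bases before the start.

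**Figure D3:**
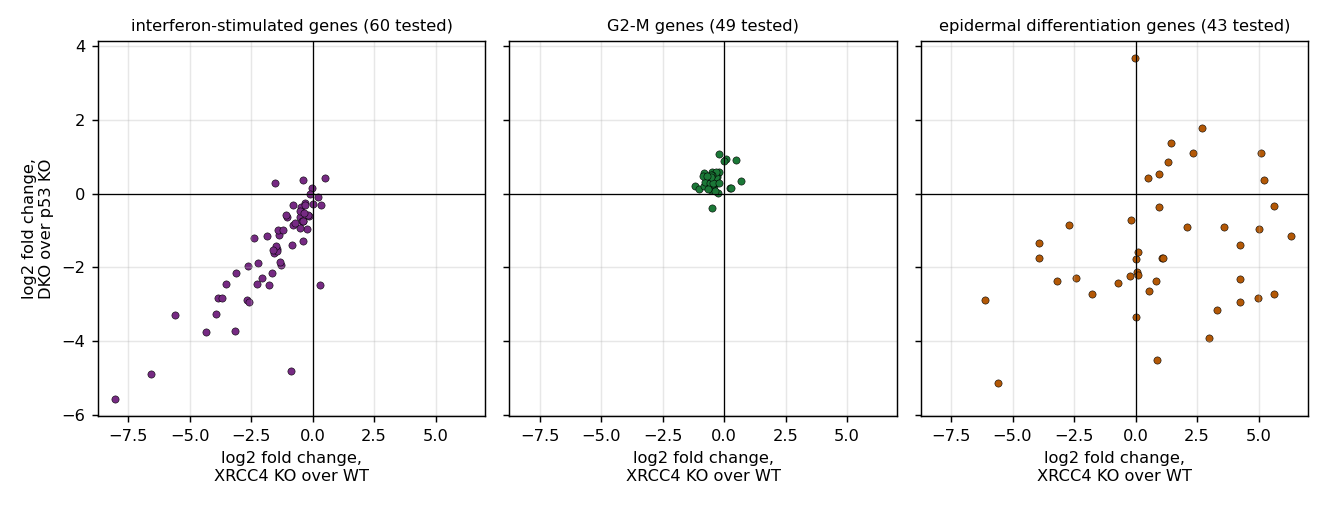
Log2 fold change of each tested member in the DKO over the p53 KO (vertical axis) and in XRCC4 KO over WT (horizontal axis), for 3 gene lists; the 2 comparisons share no library. Most interferon-stimulated genes lie in the lower left, most G2-M genes lie in the upper left and most epidermal differentiation genes lie below 0 on the vertical axis and on either side of 0 on the horizontal one.

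Of the other repair pathways, 18 of 39 homologous recombination and Fanconi genes were higher and 3 lower in the DKO, with a median of 0.16. XRCC2, a recombination gene on chromosome 7, had 53.9 and 51.3 CPM in the DKO and 25.8 and 25.9 CPM in the p53 KO (1.03 ± 0.07, edgeR adjusted p = 2.20e-13). CHEK1, the checkpoint kinase downstream of ATR, had 72.8 and 71.9 CPM in the DKO and 41.8 and 44.3 CPM in the p53 KO (0.75 ± 0.06, edgeR adjusted p = 1.63e-12), on chromosome 11, which was not raised in this comparison. Alternative end-joining genes were higher in 9 of 15 and lower in 2, with a median of 0.31, and without the raised chromosomes in 5 of 11 and 2, with a median of 0.10. ERCC1 (0.97 ± 0.05) and XRCC1 (0.57 ± 0.08) lie on chromosome 19 and RAD50 (0.56 ± 0.07) on chromosome 5 past 120 Mb. RBBP8, which encodes the resection factor CtIP, had 89.0 and 87.8 CPM in the DKO and 124 and 137 CPM in the p53 KO (-0.56 ± 0.05, edgeR adjusted p = 1.51e-10).

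The epidermal differentiation genes, which MCF10A cells switch on in part, were also mostly lower. Of 43 tested, 28 were lower in the DKO, 24 of them at least 2-fold, 7 were higher, and the median was -1.75. S100A7, psoriasin (chr1:153430220-153433177), had 1.62 and 1.51 CPM in the DKO and 51.5 and 60.6 CPM in the p53 KO (-5.14 ± 0.14, edgeR adjusted p = 1.10e-20). KLK10, a kallikrein protease (chr19:51515995-51523431), had 0.952 and 1.34 CPM in the DKO and 18.1 and 16.4 CPM in the p53 KO (-3.91 ± 0.17, edgeR adjusted p = 4.29e-19), although chromosome 19 as a whole was raised. SPRR2E, a protein of the cornified envelope, fell by 3.35 ± 0.26. LCE3D, another envelope gene, went against the list with 20.2 and 20.8 CPM in the DKO and 1.53 and 1.71 CPM in the p53 KO (3.67 ± 0.17, edgeR adjusted p = 1.68e-18), as did SBSN (1.77 ± 0.15). In cells with p53, XRCC4 KO against WT did not have this direction: 24 of the 43 genes were higher, 11 lower, and the median was 0.94. The difference of the effects was negative for 30 genes and positive for 6. S100A7 was an exception, lower in both comparisons.

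The keratinocyte-type basal markers were divided evenly, with 10 of 20 higher and 10 lower. Their median was 0.08, and -0.10 without the raised chromosomes. KRT14, the basal keratin (chr17:39738531-39743173), had 2490 and 2376 CPM in the DKO and 544 and 525 CPM in the p53 KO (2.19 ± 0.04, edgeR adjusted p = 4.13e-29), and KRT5, its partner, rose by 0.49 ± 0.04. KRT17, the stress keratin encoded nearby, had 617 and 604 CPM in the DKO and 1921 and 1815 CPM in the p53 KO (-1.61 ± 0.04, edgeR adjusted p = 9.53e-26). KRT14 also differed in cells with p53, at 5003 and 4951 CPM in XRCC4 KO and 43.5 and 44.8 CPM in WT. LAMB3 (1.09 ± 0.05), a laminin chain of the basement membrane, was higher, and the desmosomal cadherin DSG3 (-1.40 ± 0.05) was lower.

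Luminal markers were lower in 10 of 12 and not called in 2, with a median of -0.72. AGR2, a disulfide isomerase of secretory epithelia, had 1.68 and 1.40 CPM in the DKO and 18.4 and 21.2 CPM in the p53 KO (-3.67 ± 0.17, edgeR adjusted p = 2.19e-18). CLDN4 (-2.70 ± 0.10), a tight junction claudin, FOXA1 (-1.74 ± 0.11), a luminal pioneer factor, and EPCAM (-1.29 ± 0.06), an epithelial adhesion molecule, followed. AGR2 and CLDN4 were lower although they lie on chromosome 7, where the median gene was higher in the DKO than in the p53 KO. Mesenchymal and matrix genes were higher in 19 of 36 and lower in 8, with a median of 0.44, and without the raised chromosomes in 14 of 30 and 8, with a median of 0.21. VIM, vimentin, had 1077 and 1086 CPM in the DKO and 592 and 559 CPM in the p53 KO (0.91 ± 0.04, edgeR adjusted p = 1.79e-19), and the collagen gene COL6A3 rose by 2.03 ± 0.20, though not in the FPKM fits (limma adjusted p = 0.174 to 0.419). COL6A1 (-1.87 ± 0.13), LOXL2 (-1.25 ± 0.05) and MMP2 (-1.60 ± 0.33) were lower, MMP2 unevenly, at 4.43 and 10.9 CPM in the DKO and 22.8 and 23.5 CPM in the p53 KO, and without a call when only these 4 libraries were fitted (edgeR adjusted p = 0.108).

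Markers of other cell types differed as well. Of 6 tested immune and blood markers 2 were higher and 4 not called. CD14, the lipopolysaccharide co-receptor, had 35.1 and 37.1 CPM in the DKO and 8.57 and 9.0 CPM in the p53 KO (2.04 ± 0.10, edgeR adjusted p = 4.78e-18). CD68 had 63.3 and 70.8 CPM in the DKO and 40.5 and 33.4 CPM in the p53 KO (0.85 ± 0.07, edgeR adjusted p = 1.80e-10). CD14 made up most of the summed level of the 5 immune and blood markers checked, 35.3 to 37.3 CPM in the DKO and 8.89 to 9.26 CPM in the p53 KO, while the pan-leukocyte gene PTPRC did not move with CD14. Of 9 endothelial and fibroblast markers 5 were higher, 4 of them at least 2-fold, and 1, CDH5, was lower with 0 counts in the DKO. Their median was 1.01. Whether such genes come from a few other cells was not tested.

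Growth factor genes differed in both directions. TGFB2, a TGF-beta ligand (chr1:218519577-218617961), had 4.54 and 4.71 CPM in the DKO and 56.0 and 59.3 CPM in the p53 KO (-3.64 ± 0.10, edgeR adjusted p = 9.46e-25), and 17 of 28 genes of TGF-beta and activin signalling were lower, among them the feedback inhibitor SMAD6 (-2.35 ± 0.22) and the target ID2 (-1.87 ± 0.18). INHBA, the activin A subunit, was an exception with 262 and 255 CPM in the DKO and 80.0 and 84.0 CPM in the p53 KO (1.66 ± 0.05, edgeR adjusted p = 2.20e-24), on chromosome 7. Of 13 EGF receptor family genes and ligands 8 were higher and 3 lower, with a median of 0.29, and without the raised chromosomes 6 of 11 were higher and 3 lower, with a median of 0.16. The ligands NRG1 (1.48 ± 0.09), BTC (0.94 ± 0.13) and AREG (0.79 ± 0.09) rose, while the feedback inhibitors LRIG1 (-0.89 ± 0.11) and ERRFI1 (-0.79 ± 0.05) fell. Immediate early and AP-1 genes were higher in 17 of 28 and lower in 6. The MAP kinase feedback gene SPRY4 (1.45 ± 0.06) and EGR1 (0.90 ± 0.06) lie on chromosome 5 past 120 Mb and JUNB (0.90 ± 0.07) on chromosome 19, and off the raised chromosomes the count was 9 higher and 6 lower of 20.

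Stress and metabolic lists were mostly lower. Of 21 NRF2 antioxidant genes 14 were lower and 2 higher, with a median of -0.45. GCLC, the catalytic subunit of the first step of glutathione synthesis, had 48.8 and 50.4 CPM in the DKO and 88.8 and 93.0 CPM in the p53 KO (-0.87 ± 0.06, edgeR adjusted p = 8.60e-15). The aldo-keto reductases AKR1C2 and AKR1C3 were lower (-0.71 and -1.18, log2) and AKR1C1 higher (0.76), values that are uncertain one by one because these neighbours are nearly identical in sequence and reads can be split among them. Of 30 genes of the integrated stress and unfolded protein responses, 20 were lower and 4 higher. Without the raised chromosomes 20 of 23 were lower and 0 higher. PHGDH, the first enzyme of serine synthesis, had 16.2 and 16.1 CPM in the DKO and 46.7 and 45.4 CPM in the p53 KO (-1.51 ± 0.08, edgeR adjusted p = 1.75e-16). Of 28 hypoxia and glycolysis genes 18 were lower and 3 higher. Without the raised chromosomes 18 of 26 were lower and 1, NDRG1, higher. CA9, a carbonic anhydrase and HIF target, had 3.59 and 2.62 CPM in the DKO and 28.4 and 26 CPM in the p53 KO (-3.13 ± 0.25, edgeR adjusted p = 5.77e-06), while NDRG1 (0.93 ± 0.04) and ANGPTL4 (0.94 ± 0.05) were higher. Cholesterol and fatty acid synthesis genes were lower in 14 of 31 and higher in 7, with a median of -0.09, led by the desaturase FADS2 (-1.13 ± 0.06). Of 20 histone genes with polyadenylated transcripts 6 were higher and 6 lower.

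The largest differences were in genes that were silent in one line. With a rule of at least 2 CPM in both libraries of one group and at most 0.2 CPM in both of the other, 39 genes were off in the DKO and 28 were on only there, among the 2 lines. MUC16, the tethered mucin CA125 (chr19:8959520-9092018), had 0 and 1 counts in the DKO and 675 and 635 counts in the p53 KO, 1340-fold lower with a 95% counting interval of 240 to 52986. PYCARD, the inflammasome adaptor ASC (chr16:31212806-31214773), had 0 counts in both DKO libraries and 111 and 69 counts in the p53 KO, at least 61.4-fold lower. ZNF790, a zinc finger gene (chr19:37288420-37407193, an interval shared with ZNF829 and ZNF345), was at least 105-fold lower. WT1, a transcription factor, was at least 54.6-fold lower, AUTS2 (chr7:69063905-70258054) at least 45.7-fold and the neural adhesion gene DSCAM at least 30.4-fold. ZNF790, WT1, AUTS2 and DSCAM all had 0 counts in the DKO. Zinc finger genes (symbols of ZNF and a number) made up 11 of the 39 genes off in the DKO, 8 of them on chromosome 19, and 5 of the 28 genes on in it, 2 of them on chromosome 19. Several of the 11 are neighbours. ZNF568 adjoins the interval of ZNF790, ZNF829 and ZNF345, and ZNF239, ZNF485 and ZNF32 lie within chr10:44051792-44170151. Position and gene family were not separated. Of the 16632 genes tested 448 were zinc finger genes, 204 of them on chromosome 19. In the other direction MT1L, a metallothionein pseudogene whose reads may be shared with its relatives (chr16:56651388-56652730), had 521 and 458 counts in the DKO and 0 in both p53 KO libraries, at least 319-fold higher. COCH was at least 99.0-fold, ARHGEF25 at least 80.1-fold, ZBED6CL at least 70.4-fold and PDE3B, a cyclic nucleotide phosphodiesterase, at least 55.1-fold higher.

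The same rule applied to XRCC4 KO and WT gave 41 genes off and 19 on in XRCC4 KO. Of the 39 genes off in the DKO 17 were also off in XRCC4 KO and on in WT, which is 43.6% of one list and 41.5% of the other. Of the 28 genes on in the DKO 9 were also on in XRCC4 KO and off in WT, 32.1% and 47.4% of the lists. Switches in opposite directions numbered 0, which says little for lists this short among 16632 tested genes. PYCARD, AUTS2 and DSCAM had 0 counts in each of the 4 libraries without XRCC4, while WT had 12.7 and 12.5 CPM of PYCARD, 21.9 and 20.8 CPM of AUTS2 and 5.88 and 5.09 CPM of DSCAM. PDE3B and ZBED6CL had 0 counts in each of the 4 libraries with XRCC4. TMPRSS15, the enteropeptidase gene, had 3.19 and 3.67 CPM in the DKO and 0 in both p53 KO libraries, and reached 305 and 294 CPM in XRCC4 KO with 0 and 0.293 CPM in WT. Shared history of the lines and shared effects of XRCC4 loss cannot be told apart here.

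**Figure D4:**
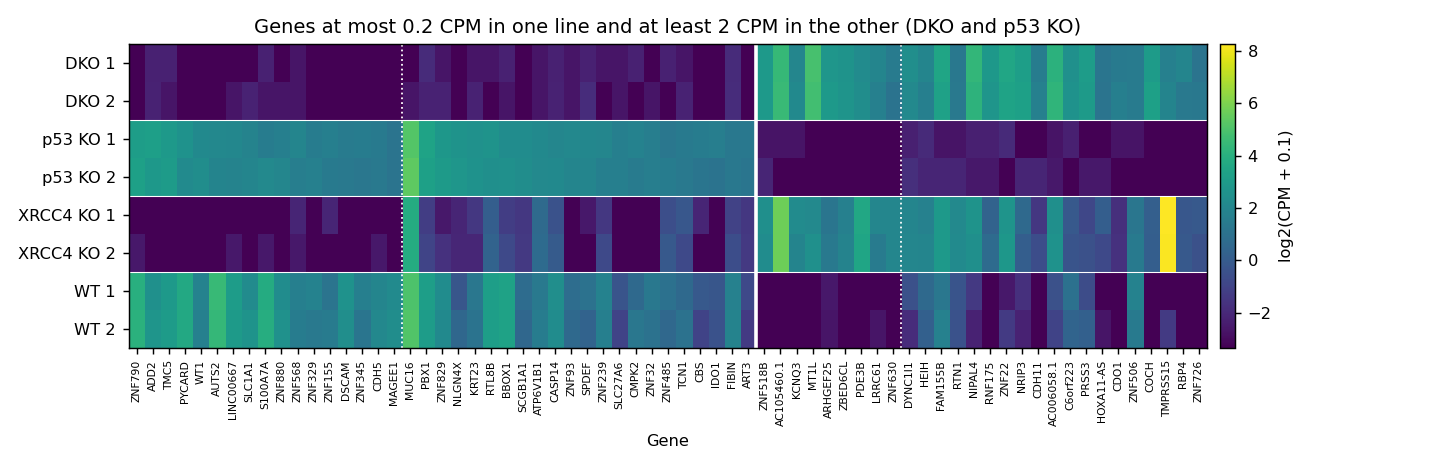
Level as log2(CPM + 0.1) in each library (rows) of the 67 genes with at most 0.2 CPM in both libraries of one of the DKO and p53 KO and at least 2 CPM in both of the other (columns); the thick white line parts genes off in the DKO (left) from genes on in it (right), and the dotted lines set apart those with the same pattern in XRCC4 KO and WT (first in each part). In those 17 and 9 genes the XRCC4 KO rows match the DKO rows and the WT rows match the p53 KO rows.

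Beyond these genes, 2027 genes were higher in both comparisons of XRCC4 loss, 50.2% of the 4037 in the p53-null background and 42.6% of the 4759 in cells with p53. Lower in both were 2193, 52.9% of 4142 and 47.3% of 4638. At 2-fold, 571 genes were lower in both, 58.9% of the DKO list and 32.2% of the XRCC4 KO list, and 248 higher in both, 27.8% and 29.2%. Opposite calls were fewer, with 703 genes higher in the DKO and lower in XRCC4 KO and 766 the other way. Of all 16632 tested genes, 28.6% were higher and 27.9% lower in XRCC4 KO against WT, and 24.3% and 24.9% in the DKO. At 2-fold XRCC4 KO had 850 genes higher and 1774 lower. Chromosomes 13, 19 and 5 past 120 Mb had raised medians in XRCC4 KO over WT too (0.48, 0.37 and 0.28). Their genes were not set apart in these counts.

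The higher calls were spread unevenly over the genome. Genes on chromosomes 7, 13 and 19 and on chromosome 5 past 120 Mb made up 16.3% of tested genes and 38.7% of those called higher, 1561 of 4037. The median log2 fold change was 0.48 on chromosome 7, where 63.2% of 829 genes were called higher and 6.51% lower, 0.55 on chromosome 13 (70.1% of 311), 0.36 on chromosome 19 (51.9% of 1178) and 0.44 on chromosome 5 past 120 Mb (51.9% of 401). Elsewhere the median was -0.04, and 17.8% of genes were called higher and 27.8% lower. Across the 4 pairs of a DKO with a p53 KO library the median lay between 0.46 and 0.48 on chromosome 7 and between 0.48 and 0.55 on chromosome 13, whereas the 2 libraries of a group differed by between -0.06 and 0.09 in the median of any chromosome. In windows of 10 Mb with at least 20 tested genes, 33 of 262 had a median of at least 0.3, and 33 of these 33 lay on chromosomes 5, 7, 13 and 19. All 15 windows of chromosome 7 were raised, by 0.33 to 0.60, and all 8 of chromosome 13, by 0.42 to 0.77. The 6 windows of chromosome 19 had medians of 0.29 to 0.46. On chromosome 5 the 5 windows past 120 Mb ranged from -0.09 to 0.59: the window from 170 to 180 Mb, with 96 genes, was not raised (-0.09, 16.7% higher and 35.4% lower), and the one from 110 to 120 Mb, outside the border used, had a median of 0.31.

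Set against WT, the blocks came from different lines. On chromosome 7 the median difference in log2 CPM from WT was -0.06 in the DKO and -0.49 in the p53 KO. On chromosome 13 it was 0.65 in the DKO and 0.18 in the p53 KO, on chromosome 19 it was 0.29 in the DKO and -0.03 in the p53 KO, and on chromosome 5 past 120 Mb it was 0.44 in the DKO and 0.04 in the p53 KO. XRCC4 KO was above WT on chromosomes 13 (0.46) and 19 (0.36) and on chromosome 5 past 120 Mb (0.26) too, and also on chromosomes 8 (0.39) and 11 (0.44), where the DKO differed from WT by 0.04 and -0.05. DNA copy number was not analysed here, and its part in these blocks was not tested. STING, IRF3, LIG4, POLM and KIF20A are among the genes named above that lie in these blocks. The medians of the interferon-stimulated, G2-M and epidermal lists kept their sign without these regions.

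**Figure D5:**
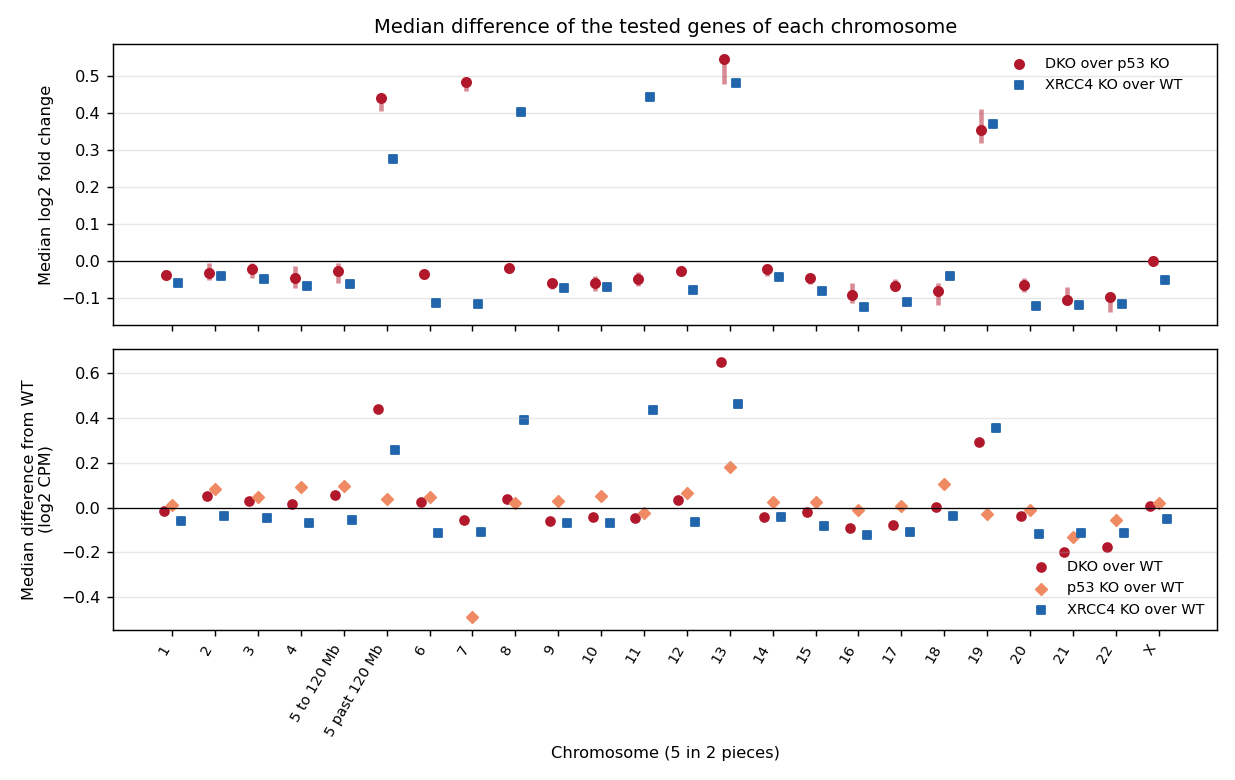
Upper panel, median log2 fold change of the tested genes of each chromosome (chromosome 5 in 2 pieces) in DKO over p53 KO (circles, bars span the 4 library pairs) and XRCC4 KO over WT (squares); lower panel, median difference of the DKO, p53 KO and XRCC4 KO from WT in log2 CPM. Chromosomes 7, 13, 19 and 5 past 120 Mb stand at 0.36 to 0.55 in the DKO over the p53 KO, and chromosome 7 is the one on which the p53 KO stands lowest, at -0.49.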

How the data were processed

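RNA was poly-A selected and prepared with Illumina protocols, per the labels' protocols. The authors deposited estimated counts per gene (96.0% to 96.9% of values whole) and FPKM per gene. STAR, Cuffnorm, DESeq2, FastQC and bcl2fastq are listed in the submitters' processing notes, with the build hg19. No annotation version is stated in the sources used. Estimated counts were rounded and tested with edgeR 4.0.16 (R 4.3.3): TMM scaling, default low-count filter, quasi-likelihood fit of 12 libraries in 6 groups of 2, and Benjamini-Hochberg adjustment over 16632 genes at 0.05. Folds are log2 with SE, and CPM values are computed on the scaled library sizes. Total counts of the 12 libraries were 14242045 to 18586016. Counting intervals and the floor of 3 counts cover counting error only. An exact permutation test of 2 against 2 cannot go below p = 0.333, so single values got none.

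Members and lists were chosen with earlier results of these data known. Named genes were the end-joining calls, fixed anchors, at most 4 calls per direction in each list, the 10 largest changes per direction and the 5 largest differences between p53 backgrounds (both among genes with a mean of at least 1 CPM over the libraries compared and no overlap between groups), other genes being marked. Coordinates are those of the file, read as counting from 0 and shifted by 1, because 26266 of 56090 lengths then equal GENCODE v29 and 327 otherwise. The remaining lengths matched neither reading, and some intervals are shared by neighbouring genes. Alternatives were DESeq2 1.42.0, its size factors, no filter, fewer libraries, a replicate block, leaving out each library, limma 3.58.1 on log2(FPKM + 1) or log2(FPKM + 0.1) of the deposited FPKM, and, chosen after seeing the data, leaving out or centring chromosomes. The code was tested on simulated data. Some genes are not reported here.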

Additional observations from a re-analysis of the deposited data

Results flagged for a closer look

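The difference of the XRCC4 effect between the p53-null and p53-intact lines was called positive for 3535 genes and negative for 3834, by its own edgeR test. Among genes with a regular symbol, a mean of at least 1 CPM over the 8 libraries and no overlap between DKO and p53 KO, the largest positive differences were in NCAM1 (8.86), PRSS3 (8.36), C6orf223 (7.40), LTF (6.95) and TSPAN18 (6.63), on the log2 scale. The largest negative ones among the same genes were in MUC16 (-8.80), KLK5 (-8.33), KLK7 (-7.78), A2ML1 (-7.48) and KRT24 (-7.25). DKO over p53 KO alone was 7.77 for PRSS3, 6.43 for C6orf223 and -10.1 for MUC16. It was -3.26 for LTF, where XRCC4 KO over WT was -10.2. Over the left-out libraries it was 0.71 to 0.89 for NCAM1 and 1.00 to 1.13 for TSPAN18. It was likewise -2.88 to -2.57 for KLK5, -2.92 to -2.71 for KLK7, -1.77 to -0.75 for A2ML1 and -2.02 to -1.12 for KRT24. Several of these genes had libraries at or near 0 counts, so the sizes depend on the prior count and are no bounds. Groups of 2 libraries were too small to look for a library far from the others.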

How the results depend on the processing

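Numbers did not pair the samples: same-numbered DKO and p53 KO libraries had a correlation of deviations of -0.05, and the replicate block gave 8200 calls beside 8179. Leaving out each of the 4 libraries gave 6761 to 7413 calls, DESeq2 5766 (2898 higher) and dropping the raised chromosomes 6347, of which 39.0% were higher beside 49.4%. The deposited FPKM gave fewer calls with log2(FPKM + 1), log2(FPKM + 0.1) and no filter: 4926, 4771 and 4450 in all, and 842, 1234 and 835 of at least 2-fold, beside 1861. For the difference of the XRCC4 effect they gave 3710, 3784 and 2987 beside 7369, and XRCC4 KO against WT had 5595 without a filter beside 9397. With log2(FPKM + 1), 30.3% of calls in XRCC4 KO against WT were higher beside 50.6%, and 61.4% of the differences were positive beside 48.0%. The number of chromosome pieces with a median of at least 0.3 was 2 with log2(FPKM + 1), with or without the filter, beside 4. The cause was not tested.

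The interferon-stimulated median was -1.07 and -1.06 on FPKM + 1 with and without the filter, -1.35 without the raised chromosomes and -1.27 to -1.11 over the left-out libraries. For interferons and chemokines it was -2.62 with the compared libraries alone, -0.92, -2.12 and -0.71 on FPKM and -1.67 without the raised chromosomes. The G2-M median was 0.27 on FPKM + 1 with or without the filter and 0.31 to 0.40 over the left-out libraries, and the epidermal median -0.99 and -0.83. Small medians turned sign. The NF-kB list gave 0.00067 with DESeq2 size factors, 0.00053 with DESeq2, between -0.020 and 0.045 over the left-out libraries (0.045 without DKO replicate 2) and 0.00015 when centred. Sensing genes gave -0.032 (without DKO replicate 1) to 0.090 over the left-out libraries, -0.0024 and -0.0020 on FPKM and -0.10 without the raised chromosomes. End-joining genes gave -0.013 (without p53 KO replicate 2) to 0.062 over the left-out libraries, -0.083, -0.084 and -0.083 on FPKM and -0.053 without the raised chromosomes. Without these, histone genes gave -0.027 and basal markers -0.10, also -0.10 centred. XRCC4 was -0.03 without DKO replicate 2 and -0.11 without p53 KO replicate 1. On FPKM, POLH was -0.11, -0.12 and -0.11 and HIST1H3E 0.081, 0.13 and 0.081, and 1 of the higher end-joining genes was -0.43, -0.45 and -0.43, none of them called. Of the gene values recomputed, 2454 kept their direction and side of the threshold, 153 lost their call, 5 gained one and 11 turned sign. BTC, CCL5, CDC25C, CIITA, ENPP1, MDM2, MKI67 and RFC2 lost their call only on an FPKM scale.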
